A study of Mus musculus with 12 samples.

Results

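Listed CpGs that lay within 500 bp of a transcription start site (TSS) are described here for mouse embryonic stem cells (ESCs) lacking Tet proteins. In reduced representation bisulfite sequencing (RRBS) the DNA is cut at CCGG sites and short fragments are sequenced after bisulfite conversion, so CpG-dense DNA is read most often. A CpG was taken when its distance to the nearest TSS was at most 500 bp on either side and its annotation named neither a repeat nor a CpG island. Such CpGs made up 1254 of the 31671 CpG entries in 5 lists of differential methylation. They fell on 934 distinct positions and carried 715 gene symbols.

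The 12 libraries came from undifferentiated clones: 3 wild type (WT), 3 Tet1 KO, 2 Tet2 KO, 2 Tet1 Tet2 double knockout (DKO) and 2 Tet1 Tet2 Tet3 triple knockout (TKO). All clones, WT included, descended from a single 129/SVj-derived ESC clone that carried an Oct4:IRES:eGFP reporter. The knockouts were made with CRISPR/Cas9, and for some clones only 1 mutant allele was found, so that a large deletion on the other could not be told apart from a shared allele. Titles set the groups, because the genotype entered for DKO replicate 1 was Tet2-/- and that entered for both TKO samples was DKO. Of the lists, 4 compare a knockout with WT and the other compares Tet2 KO with Tet1 KO. Each entry is a single difference in percentage points that the authors computed between the clones of both groups. Only differences of at least 25 points past their read and significance limits were listed. No value per clone, no methylation level and no read depth accompany an entry, so the spread between clones is unknown and no test over clones could be made. The 4 knockout lists share the same WT clones.

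The core promoter is the stretch around the TSS where the transcription machinery assembles. Promoters with many CpGs are usually free of methylation in ESCs, while CpG-poor promoters are more often methylated. Tet proteins are dioxygenases that oxidise 5-methylcytosine, which opens a route back to unmethylated cytosine. Bisulfite sequencing does not separate 5-methylcytosine from 5-hydroxymethylcytosine, so both count as methylation here.

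The core promoter CpGs numbered 215 in Tet1 KO, 317 in Tet2 KO, 200 in DKO, 346 in TKO and 176 where Tet2 KO was set against Tet1 KO, which was 2.83 to 4.60% of each list. The DKO number is too low by construction. The annotation columns of that list were out of order, and 108 of its 308 core promoter entries could not be set beside a coordinate with certainty and were left out. Most entries bore the annotation promoter-TSS: 136 of 215 in Tet1 KO, 205 of 317 in Tet2 KO, 125 of 200 in DKO and 192 of 346 in TKO. In TKO the others lay in exons (63), introns (42), 5′ UTRs (32), transcription termination sites (11) and non-coding transcripts (6). Protein-coding genes held 150 to 308 of the entries of a list and non-coding RNAs 19 to 47. Of the 108 DKO entries left out, 67 could be placed by a GENCODE TSS, and 57 of these were higher (85.1%, 74.3 to 92.6%), the largest being Prm1, the sperm protamine, at 91.8 points, and the lowest Klhl38 at −51.6 points. They enter no count below unless this is said. At the limit of the rule, the outermost TKO member was a CpG 500 bp from the TSS of H2-T9 (30.4 points), and the first CpG beyond it lay 502 bp from the TSS of Arap1 (64.9 points).

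The reference DNA of 8 of these promoters is printed because it carries the positions on which the results below turn: 4 CpGs listed in every knockout, and for each knockout the named gene with the most upstream CpGs, all higher, taking the larger mean where genes tied (Acat3 before Cabp1 in Tet1 KO). The bases are those of NCBIM37 (the mm9 assembly), read 5′ to 3′ on the strand of the gene, upstream of its TSS and outside GENCODE exons. Capitals mark the CpGs that were listed in any of the 5 lists.
Slu7, chr11:43246935-43246976, plus strand: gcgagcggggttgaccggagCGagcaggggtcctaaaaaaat
Klhl23, chr2:69660182-69660225, plus strand: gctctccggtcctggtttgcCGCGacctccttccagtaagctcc
Rab31, chr17:66122326-66122367, minus strand: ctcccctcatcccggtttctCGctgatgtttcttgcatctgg
Ppp2r5b, chr19:6236273-6236314, minus strand: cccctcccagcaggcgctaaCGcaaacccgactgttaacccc
Acat3, chr17:13133413-13133494, minus strand: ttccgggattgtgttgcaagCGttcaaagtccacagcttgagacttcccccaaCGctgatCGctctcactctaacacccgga
Boll, chr1:55419766-55419819, minus strand: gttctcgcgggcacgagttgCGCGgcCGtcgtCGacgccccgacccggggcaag
Spata18, chr5:74042251-74042313, plus strand: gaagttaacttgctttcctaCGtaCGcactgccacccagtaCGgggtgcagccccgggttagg
St5, chr7:116760089-116760142, minus strand: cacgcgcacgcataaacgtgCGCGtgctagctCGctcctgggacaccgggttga

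The listed CpGs were few beside their neighbours. The Boll window held 11 CpGs, of which 4 were listed, and the St5 window held 8, of which 3 were listed. Whether the other CpGs were read and did not differ, or were not read, cannot be told from the lists. A CCGG site (the same letters on both strands) lay within 60 bp of 99.1 to 100% of the core promoter CpGs of a list, against 97.8 to 98.2% of the listed CpGs elsewhere and 67.2% of all 993018 CpGs within 500 bp of the first TSS of a protein-coding GENCODE gene. None of the core promoter CpGs lay in a CCGG itself. The authors had clipped the first bases of each read.

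Core promoter CpGs more often had higher than lower methylation in every knockout. Neighbouring CpGs share a fragment, so CpGs less than 1000 bp apart were merged and each region took the sign of its mean difference. Of the core promoter regions, 75.4% were higher in Tet1 KO (141 of 187, 95% interval 68.6 to 81.4%), 82.7% in Tet2 KO (220 of 266, 77.6 to 87.1%), 80.6% in DKO (133 of 165, 73.7 to 86.3%) and 78.4% in TKO (240 of 306, 73.4 to 82.9%). Counted per CpG, 165 of 215 members were higher in Tet1 KO, 265 of 317 in Tet2 KO, 167 of 200 in DKO and 274 of 346 in TKO. The background is the share of all CpGs of the same list that were higher: 65.6% in Tet1 KO, 77.7% in Tet2 KO, 64.8% in DKO and 58.6% in TKO. Members were therefore above their background by the least in Tet2 KO, where most of the list was higher. The intervals of shares, here and below, are exact binomial intervals. These, and the Newcombe intervals of differences below, are for the counting of regions or CpGs and do not cover the spread between clones.

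Against the listed regions elsewhere, the share of higher regions at core promoters was larger by 22.5 points in TKO (Newcombe 95% interval 17.4 to 26.9), by 16.6 points in DKO (9.73 to 22.1), by 10.8 points in Tet1 KO (4.03 to 16.6) and by 6.19 points in Tet2 KO (1.07 to 10.4). The shares at core promoters lay within 75.4 to 82.7% in all 4 knockouts. The shares elsewhere ran from 56.0% in TKO through 64.0% in DKO and 64.6% in Tet1 KO to 76.5% in Tet2 KO, so the order of the 4 differences was the reverse of the order of the shares elsewhere, in which DKO and Tet1 KO lay within each other's intervals. The Tet2 KO interval reached below 0 when families of near-identical copies were left out (4.85 points, −0.729 to 9.45) and in 3 other settings. The Tet1 KO interval did so only with the limit at 250 bp. The DKO interval did so only in the deposited order, in which annotation and coordinates do not match, so this setting tests nothing. Across the 5 lists 20 differences of this kind were computed, and their intervals were not adjusted for that number.

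**Figure D1:**
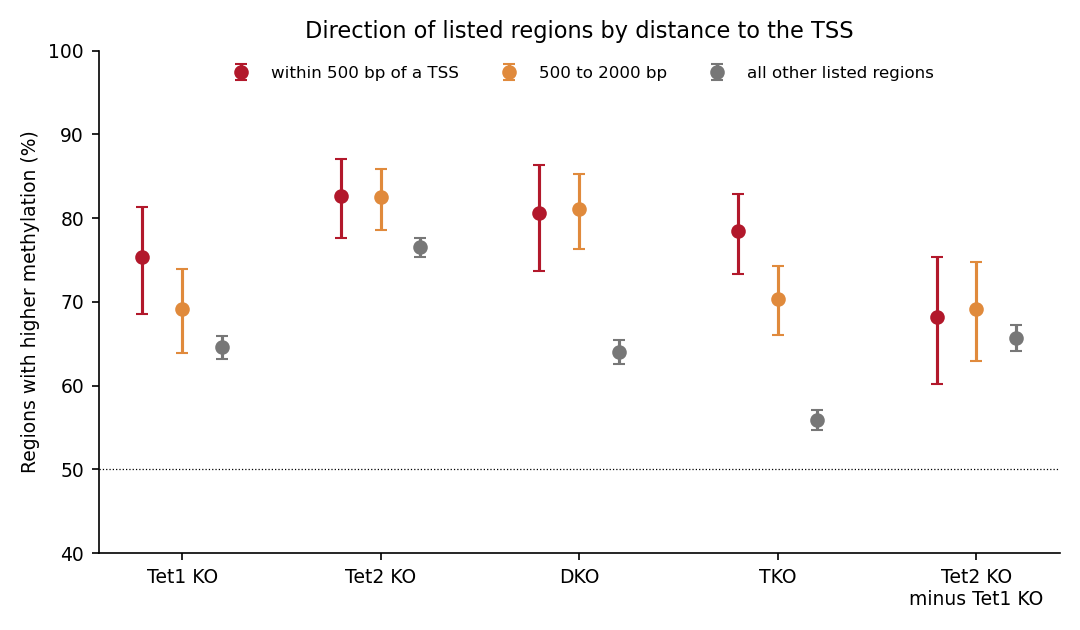
Share of regions with higher methylation (y axis, percent) in each list (x axis) at core promoters, in the promoter flank and in all other listed regions. Points are shares and bars exact 95% intervals of the count. In TKO the core promoter share (78.4%) lies above the flank (70.3%) and the rest (56.0%), while in Tet2 KO and DKO core promoter and flank lie together.

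In the flank from 500 to 2000 bp, taken with the same annotation filter, gains also prevailed. In Tet2 KO 82.5% of 440 flank regions were higher, and the difference from the core promoter was 0.21 points (−5.77 to 5.79). In DKO it was −0.54 points (−8.32 to 6.55) and in Tet1 KO 6.28 points (−1.84 to 13.9). In TKO, the exception, the interval lay above 0, with a difference of 8.12 points (1.83 to 14.1) from a flank in which 70.3% of 485 regions were higher. That interval reached below 0 with the limit at 250 bp (6.22 points, −1.51 to 12.9) and when only promoters that occur in another list were used (7.11 points, −0.721 to 14.5).

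Within the window, upstream and downstream CpGs were compared. CpGs were counted singly here, without merging neighbours that share a fragment, so the intervals may be too narrow. The share of higher CpGs upstream of the TSS minus the share downstream was −0.83 points in Tet1 KO (−12.3 to 10.3), −0.27 points in Tet2 KO (−8.66 to 7.83) and 0.064 points in TKO (−9.11 to 8.54), intervals that all include 0. In DKO 67 of 88 upstream CpGs (76.1%) and 100 of 112 downstream CpGs (89.3%) were higher, a difference of −13.1 points (−24.0 to −2.69). This difference was −7.10 points (−16.5 to 1.80) once 67 further DKO entries were placed by the GENCODE TSS, and −0.54 points (−14.8 to 13.5) among differences of at least 40 points.

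**Figure D2:**
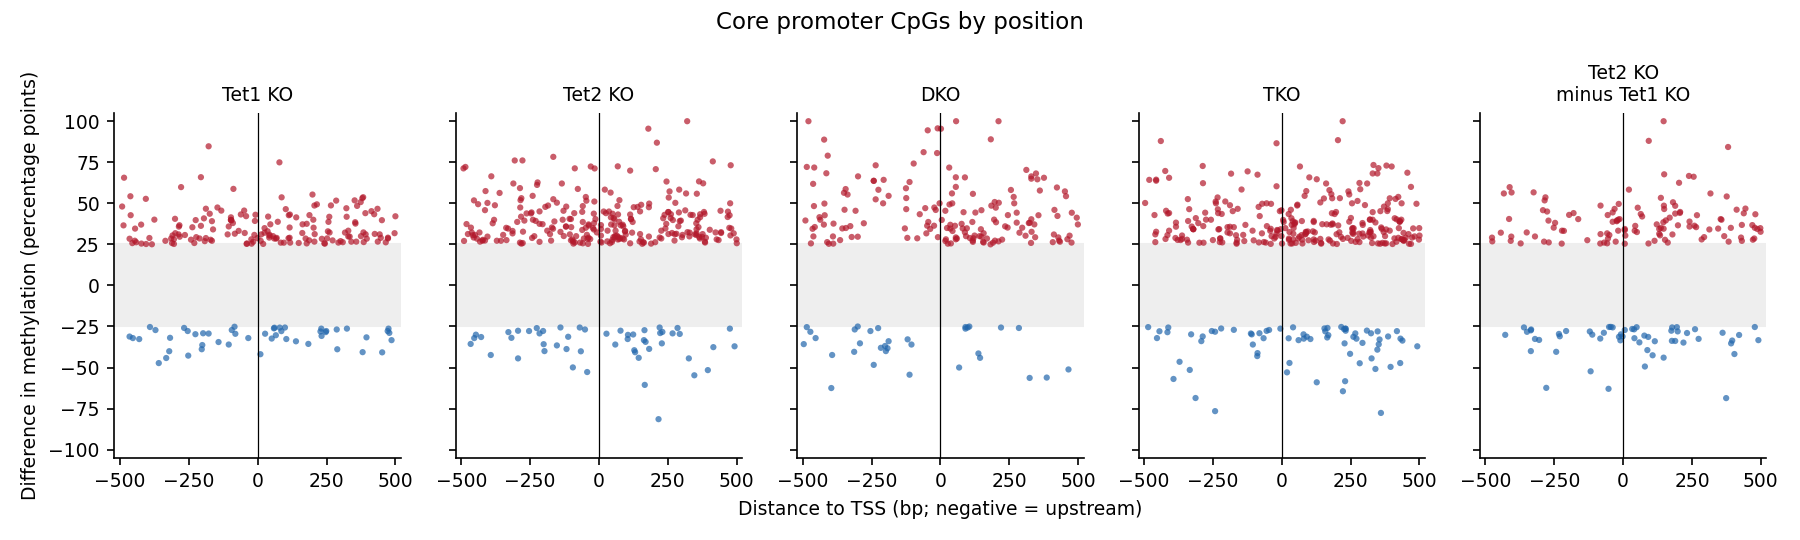
Difference in methylation (y axis, percentage points) of each core promoter CpG against its distance to the TSS (x axis, bp, negative upstream), 1 panel per list. Red points are higher and blue points lower in the knockout (in Tet2 KO, for the last panel), and the grey band holds the differences under 25 points that were never listed. Higher points outnumber lower ones on both sides of the TSS in every panel.

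The sizes of the differences were set beside those in the rest of each list. The median gain at core promoters was 32.1 points in Tet1 KO, 36.0 in Tet2 KO, 39.5 in DKO and 34.9 in TKO, beside 34.0, 37.6, 38.3 and 37.1 points elsewhere. The median loss was −30.02, −32.4, −35.7 and −31.9 points in the same order. Differences of 50 points or more made up 6.98% of the core promoter CpGs in Tet1 KO, 16.7% in Tet2 KO, 29.5% in DKO and 18.8% in TKO, and elsewhere 10.6, 22.2, 23.1 and 21.5%. DKO was thus the list in which large differences were more frequent at core promoters than elsewhere, and in the other 3 they were less frequent. Both DKO shares rest on the placed entries, whose promoters also occur in another list, a restriction the other lists do not have here. Those shares were not tested against each other.

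The members lay in promoters of moderate CpG density. The observed to expected CpG ratio compares the CpGs in a stretch with the number its C and G content would give by chance, and 0.6 or more was called CpG-rich. Over 500 bp on either side of the members the median ratio was 0.44 in Tet1 KO, 0.47 in Tet2 KO and 0.49 in both DKO and TKO, beside 0.31 to 0.32 around listed CpGs elsewhere. Over 22238 protein-coding GENCODE genes the median ratio of the window around the first TSS was 0.55, and 45.7% of these windows were CpG-rich. Against WT only 17.7% (Tet1 KO) to 27.8% (Tet2 KO) of the members were, and in Tet2 KO against Tet1 KO 30.1%. A gene starting in the opposite direction within 1000 bp was found for 11.6% of all genes. Among members with a known strand the share was 5.10% (DKO) to 9.36% (Tet1 KO) against WT and 4.68% in Tet2 KO against Tet1 KO. CpGs annotated as island had been set aside by the rule, 9 to 21 per list within 500 bp of a TSS. This does not count every CpG of an island. Very CpG-dense stretches annotated as promoter-TSS or exon stayed among the members, such as those at Atf7ip (ratio 1.08) and N4bp1 (1.05) in DKO.

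Among the members of TKO the share of gains differed with CpG density. There 83 of 96 CpGs in CpG-rich promoters (86.5%) and 191 of 250 in CpG-poor promoters (76.4%) were higher, a difference of 10.1 points (0.486 to 17.9). It was −6.91 points in Tet1 KO (−23.6 to 6.76), −2.46 points in Tet2 KO (−12.7 to 6.04) and −0.23 points in DKO (−13.3 to 10.04). In Tet1 KO the interval lay below 0 when CpG-rich meant a ratio of at least 0.75 (−24.4 points, −49.6 to −0.604). CpGs were again counted singly and not as merged regions, so these intervals may also be too narrow.

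**Figure D3:**
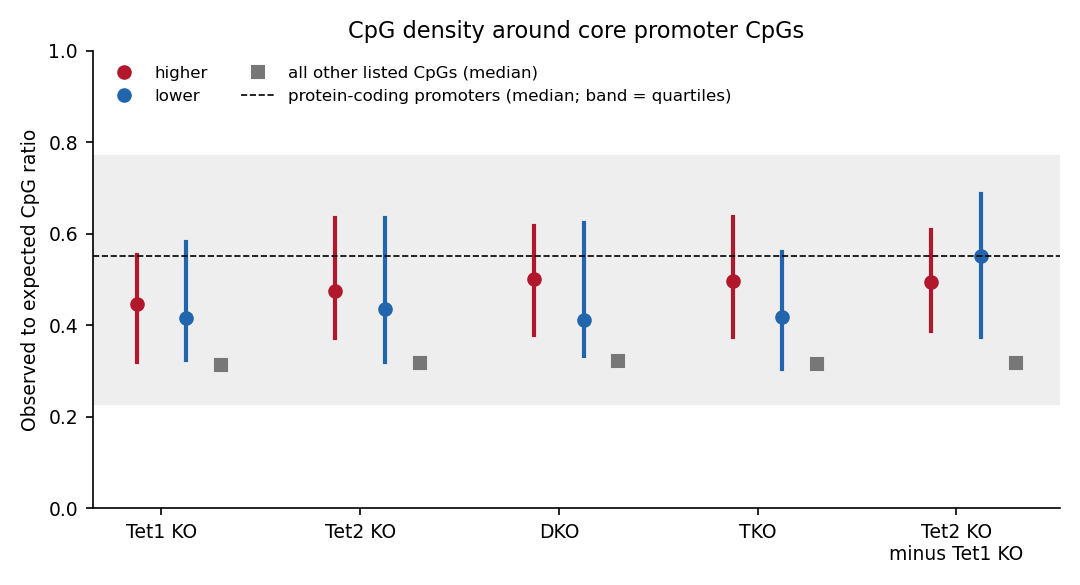
Observed to expected CpG ratio (y axis) within 500 bp of core promoter CpGs that were higher (red) or lower (blue), by list (x axis). Points are medians and bars quartiles, grey squares give the median of all other listed CpGs, and the dashed line and band give the median (0.55) and quartiles over protein-coding promoters. The medians of gains (0.45 to 0.50) lie above those of the other listed CpGs in every list.

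A gene was mostly represented by a single CpG. Of the 187 genes in Tet1 KO 164 had 1 member CpG, as did 223 of 264 in Tet2 KO, 136 of 165 in DKO and 273 of 307 in TKO. Of the genes with several, 18 of 23 were higher at every member CpG in Tet1 KO and 2 lower at every one. In Tet2 KO 28 of 41 were all higher and 2 all lower, in DKO 27 and 1 of 29, and in TKO 27 and 4 of 34. Mixed genes included Rasef, a Ras-related GTPase, which in Tet2 KO had 1 CpG at −25.6 points 140 bp upstream and others at 35.3 and 31.2 points 171 and 178 bp upstream.

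In Tet1 KO 4 genes had 3 member CpGs each, all higher. Acat3, an acetyl-CoA acetyltransferase, had 84.7 points 178 bp upstream, the largest difference of this list, and 27.8 and 28.6 points at the other positions printed above. Cabp1, a neuronal calcium sensor, had 39.6, 39.9 and 35.9 points close together about 100 bp upstream. Arsi, an arylsulfatase, had 28.1 points 23 bp upstream and 55.3 and 48.6 points 199 and 206 bp downstream. The largest single differences after Acat3 were 74.9 points at Celf2 (an RNA-binding splicing regulator), 65.9 points at Prcd and 65.6 points at Cmc1. On the other side, Casr, the calcium-sensing receptor, had −33.3 and −28.9 points in its first 500 bp, and Arhgef19, a guanine nucleotide exchange factor, had −29.5 and −27.2 points. The lowest value was −47.3 points upstream of Rapgef4, an exchange factor for Rap GTPases.

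In Tet2 KO the promoters with the most CpGs were those of Boll and Scrt1. Boll, an RNA-binding protein of the DAZ family needed in male germ cells, had 30, 54.5, 44.4 and 43.8 points at the 4 CpGs printed above, which lie 235 to 247 bp upstream in a CpG-dense promoter (ratio 0.90). It had no core promoter CpG in any other list. Scrt1, a zinc finger repressor of neurons, had 43.3, 63.3, 35.5 and 40 points at 4 CpGs of its 5′ UTR 358 to 367 bp downstream. One of those CpGs was also listed in Tet1 KO (48.4 points) and another in TKO (34.5 points). Rgs8, a regulator of G protein signalling, had 33.8, 51.6 and 28.6 points, and Col11a2, a cartilage collagen, had 35.2, 30.6 and 29.2 points. The largest values were 100 points beside Mir141 and 95.5 points at Galnt6. The lowest were −81.5 points at AU023762, −60.6 points at Prss39 and −54.7 points at Nfam1. The other AU023762 CpG had −52.7 points.

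In DKO the CpGs of Hes7 stood highest among promoters with several CpGs. Hes7 is the repressor that oscillates in the segmentation clock of the embryo. Its 3 CpGs, at chr11:68933943, 68933945 and 68933957, lie from 12 bp upstream to 2 bp downstream of the TSS and had 80.6, 95.7 and 95.4 points. The middle one was listed in Tet1 KO at 39.3 points, and no Hes7 core promoter CpG was listed in Tet2 KO or TKO. Rnf112, a RING finger protein of neurons, had 40.1, 89.0 and 55.8 points, and one of these CpGs was listed in TKO at 53.1 points. Spata18 had 46.1, 58.7 and 36.1 points at the positions printed above, with 30.8 points at the first of them in Tet2 KO and 27.8 points at the second in TKO. Rgs8 had 81.1 and 94.4 points 61 and 46 bp upstream. Differences of 100 points, which need 0% methylation in one group and 100% in the other, stood at Cmtm1, Cul7 and Nfam1. The lowest value was −62.5 points at Slc9a9.

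In TKO the 3 CpGs of Wdr20rt, a retrogene and therefore uncertain, had 68.2, 68.2 and 53.1 points. St5, a DENN domain protein, had 28.6, 30 and 49.7 points at the CpGs printed above and no core promoter CpG in any other list. Cntnap1, an axonal adhesion protein of the paranode, had a mean of 32.7 points over 3 CpGs. Mbp, myelin basic protein, had a mean of 56.4 points over 2. The largest values were 100 points at Pramef12, 88.5 points at Kbtbd12, 87.9 points at Gm19557 (a predicted gene, uncertain) and 86.6 points at Atf7ip, a partner of the SETDB1 histone methyltransferase. Shank2, a postsynaptic scaffold, was the gene with the most lower CpGs (−27.7, −27.1 and −29.2 points). Sparcl1 had a mean of −50.1 points and Pbp2 of −41.9 points, over 2 CpGs each. The lowest value was −77.7 points at Lrrc52.

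Of the positions, 6 were members in all 4 knockout lists, 38 in 3, 140 in 2 and 660 in only 1. At Slu7, a splicing factor, the CpG printed above had 59.9 points in Tet1 KO, 76.1 in Tet2 KO, 37.8 in DKO and 44.3 in TKO. The first Klhl23 CpG had 39.8, 61.2, 58.2 and 26.4 points in the same order, and the neighbouring CpG 2 bp away had 29.4, 62.7 and 28.6 points in Tet1 KO, Tet2 KO and TKO. At Arhgap24, a GTPase-activating protein, the values were 30.9, 41.5, 49.97 and 35.0 points, and at AA467197 43.4, 32.3, 59.6 and 53.9 points. Tet2 KO had the highest value at Slu7 and Klhl23 and DKO at Arhgap24 and AA467197. Rab31, a GTPase of endosomal transport, and Ppp2r5b, a regulatory subunit of protein phosphatase 2A, were lower, at −27.8 and −32.1 points in each of the 4 lists. By gene symbol, 10 genes had a member in all 4 lists, the others being Card6, Htr1d, Nfam1 and Phldb3.

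Card6, a caspase recruitment domain protein, had gains at 5 positions from 383 bp downstream to 17 bp upstream of its TSS. The mean over its member CpGs was 44.5 points in Tet1 KO (3 CpGs), 69.6 in Tet2 KO (3), 46.0 in DKO (1) and 53.4 in TKO (2). Signs were mixed over the CpGs of Htr1d, Nfam1 and Phldb3, and also in Tet2 KO at Klhl23 (−35.6 points at −466 bp) and Rab31 (45.5 points at −129 bp). Htr1d, a serotonin receptor, stood at −29.1 points in Tet1 KO and at −40 in both Tet2 KO and DKO at a CpG 198 bp upstream. It had 31.9 points in Tet2 KO and 62.4 points in TKO at CpGs downstream of a different start site. Nfam1 had 29.3, 100 and 49.2 points in Tet2 KO, DKO and TKO at a CpG 57 bp downstream, 26.0 and 33.2 points in Tet1 KO and Tet2 KO at another, and −54.7 points in Tet2 KO beside its other start site. Phldb3 stood at −30.8 points in Tet1 KO and −27.6 in TKO at a CpG 232 bp downstream, and 25.4, 37.5 and 35.2 points in Tet1 KO, Tet2 KO and DKO at a CpG 12 bp further on.

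Among the CpGs in 3 lists, the means were largest at Cmc1, Adcyap1, Gm19557, Nfam1 and Ccdc151. Cmc1, an assembly factor of cytochrome c oxidase, stood at 65.6 points in Tet1 KO and at 72.2 in both Tet2 KO and DKO. Adcyap1, the precursor of the neuropeptide PACAP, had 58.8 points in Tet1 KO, 71.3 in Tet2 KO and 67.4 in TKO at a CpG 88 bp upstream. Ccdc151, which serves ciliary dynein assembly, had 45.2, 75.5 and 52.7 points in the same order. Rgs8 had 43.2, 33.8 and 81.1 points in Tet1 KO, Tet2 KO and DKO, and Ccdc110 39.1 in Tet1 KO, 78.3 in Tet2 KO and 30.6 in TKO. The highest knockout thus differed from CpG to CpG. The losses among them were smaller: Rnf144b had −31.6, −51.6 and −49.6 points in Tet1 KO, Tet2 KO and TKO, and Tmem178b had −31.3, −54.4 and −29.3 points in Tet2 KO, DKO and TKO. As the knockout lists share their WT clones, their values are set side by side here and nothing is read from how often they coincide.

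**Figure D4:**
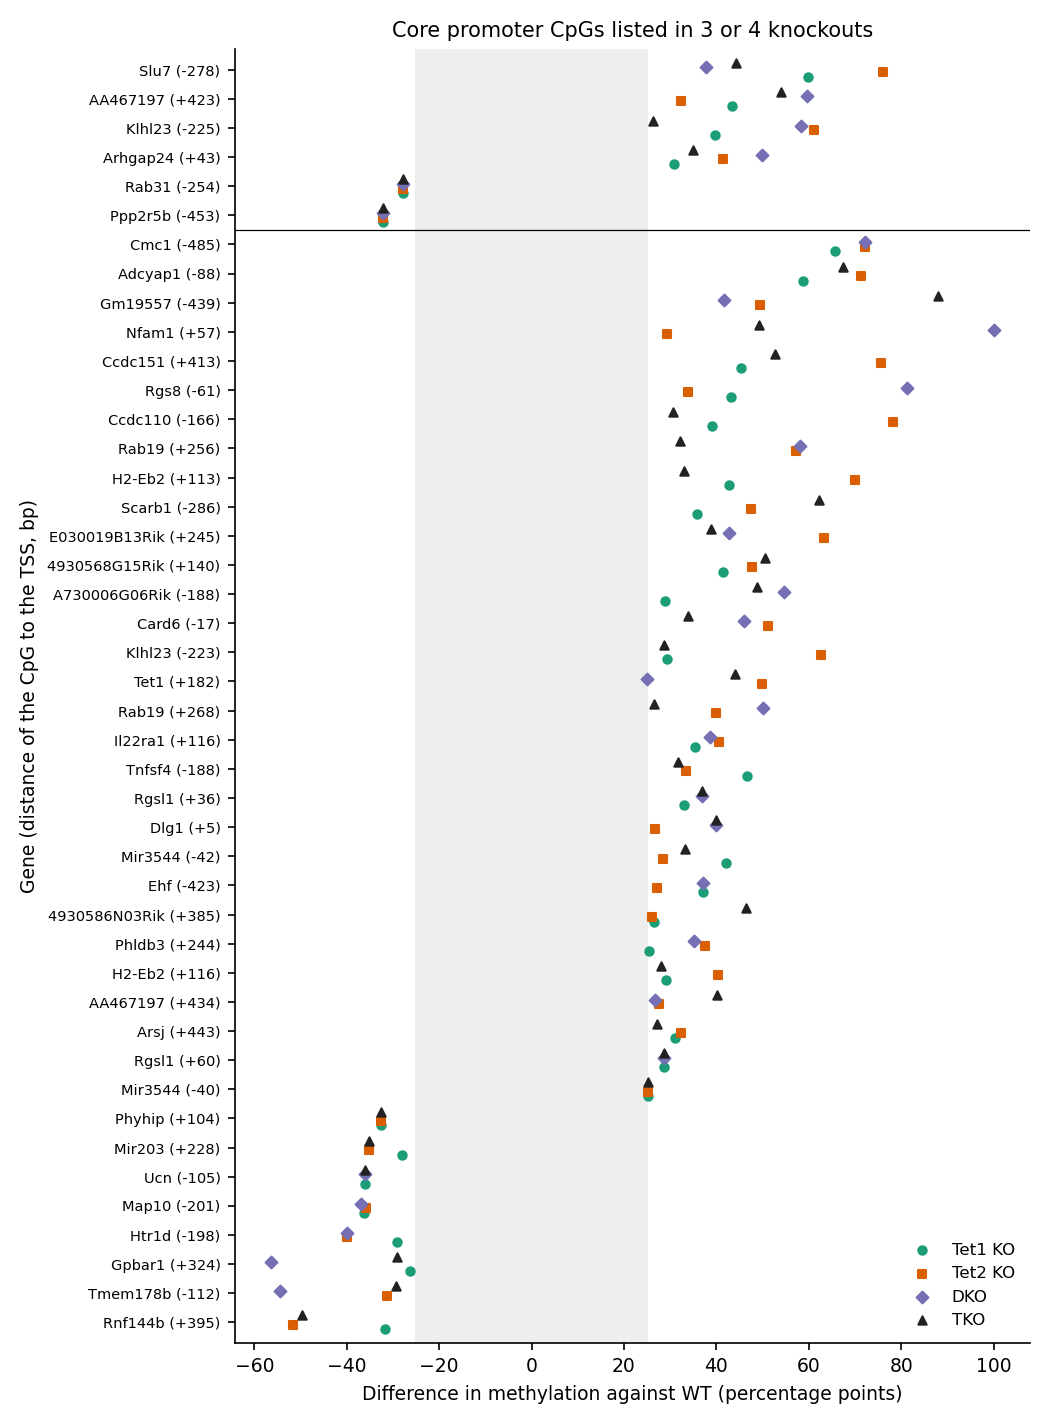
Difference against WT (x axis, percentage points) at the 44 core promoter CpGs listed in all 4 knockouts (above the line) or in 3 (below it), named by gene and distance to the TSS in bp. Each symbol is the value of 1 knockout list, and the grey band holds differences that were never listed. Symbols of several knockouts coincide at Rab31, Ppp2r5b, Phyhip, Ucn and Mir3544.

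At 35 of the 184 positions listed in 2 or more knockouts, the value was the same in at least 2 of them to within 1e-05 points. It was equal in all 4 at Rab31 and Ppp2r5b, and in 3 at Rgsl1 (28.6 points), Mir3544 (25.3 points), Phyhip (−32.7 points) and Ucn (−36.0 points). Of the 35, 20 were lower and 15 higher. Each value is a knockout level minus a level of the same WT clones, so equal values correspond to equal knockout levels, and such a CpG does not rank the knockouts. The levels themselves are not in the lists.

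At 9 positions the sign differed between knockouts. Shank2 had −26.8 points in Tet2 KO and 31.7 points in DKO 51 bp upstream. At Otogl, which belongs to the inner ear matrix, DKO stood at −34.0 and TKO at 35.7 points. At Ss18l2 Tet1 KO stood at 28.9 and TKO at −57.0 points, and at Prss39 Tet2 KO at 27.9 and DKO at −50 points. The rest of the 184 positions in 2 or more lists had 1 sign.

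The direct comparison of Tet2 KO with Tet1 KO asks which of both single knockouts was more methylated. Here 68.2% of 157 core promoter regions were higher in Tet2 KO (60.3 to 75.4%), beside 67% of all CpGs of this list. The difference from regions elsewhere was 2.41 points (−5.39 to 9.37), so core promoters could not be told apart from the rest. Among differences of at least 40 points it was 14.0 points (1.90 to 22.0). Values of this list come from 1 strand of a CpG, 99 on the forward and 77 on the reverse strand, while the lists against WT hold 1 entry per CpG on the forward strand.

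Tet1 itself was among the genes that were higher in Tet2 KO. A CpG in an exon, 182 bp downstream of the TSS at chr10:62342580, had 49.8 points in Tet2 KO, 25.01 in DKO and 44.0 in TKO against WT, and 50.6 points in Tet2 KO against Tet1 KO. A second CpG 15 bp further downstream had 50.8 points in DKO and 44.7 in TKO. No Tet1 core promoter CpG was listed in Tet1 KO. None of Tet2 or Tet3 was a member in any list, where for DKO only the placed entries were searched. Zrsr1, an imprinted retrogene expressed from the paternal allele, had the opposite sign with −39.4, −42.5 and −34.0 points at 3 CpGs 88 to 115 bp downstream. Sfi1, which has near-identical copies and is uncertain, had a mean of −30.4 points over 4 CpGs, and in DKO against WT 29.1 points over 3. Rab19 (54.5 points over 2 CpGs) and Calcr, the calcitonin receptor (53.6 points over 2), were higher in Tet2 KO. The extremes were 100 points at Igf2os, 88.0 points beside Mir9-2 and −68.6 points at Ptpn6, a tyrosine phosphatase of blood cells.

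At 8 positions a CpG was a member in both single-knockout lists and in the direct list. Klhl23 had 29.4 points in Tet1 KO, 62.7 in Tet2 KO and 33.3 in the direct list, and Card6 had 26.7, 70.8 and 44.1 points. At 4932702P03Rik, counted among the families with near-identical copies and so uncertain, the values were −40.6, 44.7 and 84.3 points. At these CpGs, and at H2-Eb2 (42.7, 69.9 and 27.2 points), the direct value is close to the Tet2 KO value minus the Tet1 KO value. At the others it was not. C1qtnf6 had 25.2, 50.2 and 56.6 points, Scarb1 35.8, 47.5 and 26.7 points, and Rnf144b −31.6, −51.6 and −33.6 points. Slc22a3 had the opposite sign in the direct list, with 25.8, 39.3 and −31.0 points.

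Genes were also counted by family, from their symbols and descriptions, by the sign of the mean over their member CpGs. Over all genes the count of higher genes was 141 of 187 in Tet1 KO, 219 of 264 in Tet2 KO, 133 of 165 in DKO and 241 of 307 in TKO, which is the measure for the smaller counts that follow. The families were drawn up with results of these data known, and nothing particular to a family is read from its count.

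The germline and meiosis genes of a list of symbols were all higher: 4 of 4 in Tet1 KO, 4 of 4 in Tet2 KO, 3 of 3 in DKO and 6 of 6 in TKO, with medians of 31.6, 34.7, 47.0 and 36.0 points. That list does not hold every germ cell gene among the members. Tnp1, a spermatid transition protein, had 37.2 points in Tet1 KO and TKO, and −25.05 points in DKO at another CpG. Tekt5, a sperm flagellar tektin, had −27.3 points in Tet2 KO and −31.7 points in TKO. Many germline genes are silenced by promoter methylation outside the germline. Sycp3, of the synaptonemal complex, stood at 46.5 points in Tet1 KO and 31.0 in TKO, at different CpGs. Hormad2, which marks unsynapsed meiotic chromosomes, had 29.1 and 34.9 points in Tet1 KO. Asz1, of the piRNA pathway, had 32.9 points in both Tet2 KO and TKO. Spag8, a sperm protein, had 36.5 points in Tet2 KO and 49.7 points in TKO, at different CpGs.

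Of the developmental transcription factors found by family words in their descriptions (homeobox, forkhead and the like), 3 of 6 were higher in Tet1 KO, 8 of 10 in Tet2 KO, 4 of 4 in DKO and 3 of 7 in TKO. In Tet2 KO the largest were Dbx1 of the neural tube (59.3 points) and Mixl1 of the primitive streak (47.8 points). In TKO Lhx3, of motor neurons and the pituitary, had 43.5 points and Pdx1, of the pancreas, −39.1 points. At other CpGs Lhx3 had 45.5 points in DKO and −25.9 points in Tet1 KO. Members outside these words included Myod1, the muscle regulator. It had 49.4 points in Tet1 KO and 29.6 in TKO at a shared CpG, and 50.3 in DKO at another. Of the zinc finger (Zfp) genes only Zfp57 in Tet2 KO, Zfp108 in DKO and Zfp750 and Zfp939 in TKO were members, at 26.0 to 37.0 points.

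Immune and histocompatibility genes were higher for 8 of 8 in Tet1 KO, 8 of 9 in Tet2 KO, 3 of 4 in DKO and 7 of 9 in TKO. H2-Eb2, a class II gene with near-identical relatives and so uncertain, had 42.7 points in Tet1 KO, 69.9 in Tet2 KO and 32.9 in TKO at 1 CpG. Tnfsf4, the OX40 ligand, had 46.7 points in Tet1 KO, and Cxcl2, a neutrophil chemokine, 56.5 points in Tet2 KO. Il13, a type 2 cytokine, was lower in TKO at −47.4 points. Cell adhesion and matrix genes were higher for 5 of 5, 6 of 7, 1 of 2 and 7 of 8 in Tet1 KO, Tet2 KO, DKO and TKO, led by Col14a1 (72.4 points) and Col11a2 (69.7 points) in TKO, while Papln was lower at −44.1 points in both Tet2 KO and DKO.

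Receptors, channels and transporters were counted in the same way. Of the G protein-coupled receptors 3 of 4 were higher in Tet1 KO, 3 of 6 in Tet2 KO, 0 of 4 in DKO and 4 of 7 in TKO. Those of DKO were Htr1d and the uncertain Vmn2r29, Olfr368 and Olfr225, of families with near-identical copies. In TKO the group includes the kinase Grk1 (−59.0 points) by its description. Ion channels were higher for 1 of 1, 3 of 4, 3 of 4 and 6 of 8, and Asic2, an acid-sensing channel, had 45.8 points in Tet2 KO and a mean of 61.8 points over 2 CpGs in DKO. Solute carriers were higher for 3 of 4, 6 of 8, 3 of 5 and 5 of 6. Slc6a5, the neuronal glycine transporter, had 62.1 points in Tet2 KO and 68.1 points in TKO, at different CpGs, and Slc45a1 had −48.4 points in DKO. Synaptic proteins were few, with 2 of 2, 0 of 2, 3 of 3 and 1 of 2 higher, counts that include Sycp3 by its description. Reln, an extracellular guide of migrating neurons, had 50 points in DKO.

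Small GTPases and their regulators were higher for 1 of 5 in Tet1 KO, 6 of 8 in Tet2 KO, 6 of 8 in DKO and 5 of 8 in TKO. In Tet1 KO Arhgap24 was the one higher. In DKO Arhgef3 had 63.8 points and Cdc42ep2 56.4 points. Kinases and phosphatases were higher for 2 of 3, 5 of 8, 4 of 6 and 6 of 9, led by Ptpn20 in Tet2 KO and Gne, of sialic acid synthesis, in DKO (73.2 and 73.1 points). Genes of ubiquitin and protein turnover were higher for 3 of 4, 5 of 6, 4 of 4 and 7 of 8, and mitochondrial and ribosomal proteins for 2 of 3, 3 of 3, 2 of 2 and 4 of 5. Of the symbols listed as chromatin and DNA methylation machinery, Tet1 and H2afy3 (a mean of 39.6 points in Tet1 KO), which is annotated as a pseudogene, were members. Atf7ip, described above, was not in that list.

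Imprinted genes were few, with 1 of 2 higher in Tet1 KO, 2 of 3 in Tet2 KO and 1 of 3 in TKO, and none among the placed DKO entries. Peg10 had −30.3 points in Tet1 KO. Meg3, a maternally expressed non-coding RNA, had 58.8 points in Tet2 KO, and Gnas had −44.4 points in both Tet2 KO and TKO. MicroRNA genes were higher for 8 of 10, 8 of 11, 5 of 5 and 8 of 14, among them Mirlet7e (65.8 points in DKO) and Mir25 (72.4 points in TKO), with Mir874 at −64.4 points in TKO. Families with near-identical copies, in which reads may be placed on the wrong copy, held 28, 32, 19 and 35 genes, of which 22, 29, 14 and 29 were higher.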

How the data were processed

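RRBS libraries of 12 ESC clones were analysed from 5 deposited lists. Per the labels and the study's methods, the authors clipped the first bases of each read, trimmed with Trim Galore 0.5 and aligned to mm9 with Bismark 0.19.1. They compared the groups in methylKit at CpGs with a minimum number of reads, and annotated each CpG with HOMER. Tool versions are from the submitters' processing notes. What the authors deposited is a kind of value other than a level: their own comparison, a difference in percentage points at 1 CpG, with its distance to the TSS. These are the only measurements in the lists, so they were used as values and no test was run on them. Depth per clone and per CpG is unknown, and with it the precision of a single difference.

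Positions were compared with NCBIM37, on which all but 4 to 9 entries of a list were found to be CpGs, and distances and gene names were used as deposited. The DKO annotation was paired with coordinates where promoter (with its position in another list) and distance gave a unique entry, which placed 5573 of 7078 entries. In a check that put the TKO annotation out of order before pairing it, 5384 of 5384 placed entries were right, and 76.7% of the 206 placed core promoter CpGs were higher, beside 79.2% of the whole. At 521 of 3089 DKO positions also listed in another knockout, the difference equalled that of the other list within 1e-05 points. A further 67 DKO core promoter entries were placed with GENCODE in an alternative (57 higher).

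Shares have exact (Clopper-Pearson) 95% intervals and differences of shares Newcombe 95% intervals, checked on simulated counts (scipy 1.17.1, pandas 2.3.3). Alternatives were the merging distance, the distance limit, minimum differences of 30 and 40 points, the annotation filter, autosomes only, families with near-identical copies left out, the ratio and window that define CpG-rich, CpGs next to the TSS left out and the deposited DKO order. Named genes were, per list, up to 6 with the most CpGs all higher and 3 all lower, the 4 highest and 3 lowest CpGs, genes or CpGs in 3 or more knockout lists, Tet genes, and up to 2 per family of genes, and not all of them are printed. Genes named as exceptions, as members outside a family list, with opposite signs or with equal values were chosen after their values were seen. Members, lists and families were chosen with earlier results of these data known. Some symbols had been turned into dates in the lists and are not named.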

Additional observations from a re-analysis of the deposited data

How the results depend on the processing

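No paired analysis was possible because no list has a column for a single clone, and no clone was left out in turn for the same reason. No result reversed. The share of higher regions at core promoters stayed within its interval in 46 settings and moved in 5. Among differences of at least 40 points it was 86.0% in Tet1 KO, 88.7% in Tet2 KO, 84.4% in TKO and 83.6% in Tet2 KO against Tet1 KO. With the annotation in its deposited order it was 67.6% in DKO. In that order annotation and coordinates do not match, so this setting cannot test the DKO results, here or below. In 44 settings the difference between core promoters and elsewhere kept an interval excluding 0, or, in Tet2 KO against Tet1 KO, including it. Its interval came to include 0 in Tet1 KO with the limit at 250 bp (8.66 points), in Tet2 KO with regions merged at 100 bp (5.09 points), the limit at 250 bp (3.35 points), families with near-identical copies left out (4.85 points) or only promoters that occur in another list (4.62 points), and in DKO with the deposited order (4.40 points). In Tet2 KO against Tet1 KO it came to exclude 0 among differences of at least 40 points (14.0 points). The difference from the flank in TKO lost its interval above 0 with the limit at 250 bp (6.22 points) and with only promoters that occur in another list (7.11 points). The upstream minus downstream difference of DKO came to include 0 among differences of at least 40 points (−0.54 points), in the deposited order (−2.98 points) and with further entries placed by GENCODE (−7.10 points). CpG-rich minus CpG-poor came to exclude 0 in Tet1 KO at a ratio of 0.75 (−24.4 points) and in Tet2 KO against Tet1 KO with a window of 250 bp (−14.3 points). The causes were not tested. The restriction to promoters in another list and the GENCODE placement were chosen after seeing the data. Read depth limits every value to an unknown degree.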
